A study of Mus musculus with 6 samples.

Results

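Switch junctions that carry an insertion were examined: reads in which at least 2 bases lie between the part aligned to the Sμ bait and the part aligned to a switch region. Members were chosen by read positions alone, as junctions listed in Sμ, Sγ1 or Sε with 2 or more read bases between the end of the bait alignment and the start of the prey alignment. The rule found 482 of 4002 listed junctions, with 333 in Sμ, 86 in Sγ1 and 63 in Sε. Of these, 78 hold exactly 2 inserted bases and lie just inside the threshold, and 220 junctions with 1 inserted base lie just outside it. The junctions came from high-throughput genome-wide translocation sequencing (HTGTS), which reads outward from a fixed bait and maps what it is joined to. Libraries were made from genomic DNA of CD43-negative splenic B cells of 129 strain mice, cultured for 4 days with IL-4 at 20 ng/mL and an anti-CD40 antibody at 1 ng/mL. The 3 genotypes, with 2 libraries each, were ATM RX/RX (homozygous for R3057X, a mutation that deletes ATM's C-terminal FATC domain), ATM KO (labelled ATM-/-) and wild type. All 3 groups of mice carried a preassembled IgH locus on the 129 background, per the series' design text. Listed switch junctions numbered 812 and 489 for ATM RX/RX, 271 and 1347 for ATM KO, and 709 and 374 for wild type. Nothing in the labels ties a library to its own animal, so exact tests over libraries measure the spread between libraries, which may be technical.

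Class switching joins a break in Sμ to a break in a downstream switch region, and breaks within Sμ can also be joined to each other. Most such ends are ligated by non-homologous end joining, directly or with little overlap, and alternative pathways use longer microhomology. Inserted bases can be added without a template or copied from nearby DNA, and ATM is the kinase that signals the breaks and helps to hold their ends. In these lists a minus-orientation prey reads in the same genomic direction as the bait, as a deletional join does. A plus-orientation prey reads the opposite way, as an inversion or a join between chromosomes does.

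The bait stretch is shown first, since parts of it recur among the insertions. In mm9 the nested primer matched 1 place, and the 120 bases from its start, chr12:114664790-114664909 on the minus strand, are printed with the primer in capitals.
bait: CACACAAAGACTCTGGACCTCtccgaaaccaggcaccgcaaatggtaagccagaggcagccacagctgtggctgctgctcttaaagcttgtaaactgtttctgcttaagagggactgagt

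The junctions below show the longest insertions of each genotype whose whole length recurs in an aligned part of the listed reads, and the longest without such a match. Each line is a read from 15 bases of bait through the insertion, in capitals, to 15 bases of prey, 5′ to 3′. A prey in plus orientation is read on the strand opposite to the bait's.
ATM RX/RX, Sμ plus, 24 bp, matched: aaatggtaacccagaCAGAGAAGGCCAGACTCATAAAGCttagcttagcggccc
ATM RX/RX, Sμ minus, 24 bp, matched: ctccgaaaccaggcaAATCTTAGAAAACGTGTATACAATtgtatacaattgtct
ATM RX/RX, Sγ1 plus, 24 bp, matched: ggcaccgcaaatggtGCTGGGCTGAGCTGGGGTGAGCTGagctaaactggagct
ATM RX/RX, Sμ plus, 29 bp, no match: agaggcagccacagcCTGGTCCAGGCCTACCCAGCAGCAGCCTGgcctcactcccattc
ATM KO, Sμ minus, 26 bp, matched: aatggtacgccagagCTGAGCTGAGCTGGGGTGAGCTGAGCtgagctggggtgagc
ATM KO, Sγ1 minus, 25 bp, matched: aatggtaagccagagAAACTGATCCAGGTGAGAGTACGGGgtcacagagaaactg
ATM KO, Sμ plus, 24 bp, matched: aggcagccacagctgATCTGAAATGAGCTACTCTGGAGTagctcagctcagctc
ATM KO, Sμ plus, 29 bp, no match: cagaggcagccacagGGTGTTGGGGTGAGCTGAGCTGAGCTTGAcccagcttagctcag
wild type, Sμ minus, 26 bp, matched: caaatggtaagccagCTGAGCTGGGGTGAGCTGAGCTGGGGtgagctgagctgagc
wild type, Sγ1 plus, 25 bp, matched: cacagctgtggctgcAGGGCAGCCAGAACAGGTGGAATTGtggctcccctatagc
wild type, Sε minus, 24 bp, matched: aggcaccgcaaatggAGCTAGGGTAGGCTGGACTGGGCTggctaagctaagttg
wild type, Sμ plus, 27 bp, no match: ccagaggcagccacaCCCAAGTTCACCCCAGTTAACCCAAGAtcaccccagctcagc

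Several of the matched insertions are switch repeats. The insertions in the ATM RX/RX Sγ1 junction, the first ATM KO junction and the first wild-type junction contain the GAGCT and GGGGT units typical of Sμ. They occurred at 8, 13 and 6 places in mm9, in that order, every place within the IgH segment that the authors exchanged for 129 sequence. In the reads, the insertion of that Sγ1 junction matched Sμ prey parts and no others. By contrast, the insertion of the wild-type Sε junction matched mm9 at a single place, chr12:114514704-114514727, and Sε prey parts in the reads. The unmatched 29-base insertion of ATM KO and the unmatched 27-base insertion of wild type had no exact place in mm9 either, although both contain short switch-like words.

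In Sμ, insertions took a larger share of junctions in every mutant library than in either wild-type library. Insertion junctions made up 15.4% and 12.7% of Sμ junctions for ATM RX/RX, 11.8% and 17.9% for ATM KO, and 7.56% and 11.5% for wild type. The lower ATM KO library exceeded the higher wild-type library by little. The exact (Clopper-Pearson) 95% interval was 12.5% to 18.7% in ATM RX/RX replicate 1, 15.4% to 20.6% in ATM KO replicate 2 and 4.54% to 11.7% in wild type replicate 1. These intervals cover counting error only, not the spread between libraries. They take each listed junction as a separate event, although the PCR reads carry no molecular identifiers.

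In Sγ1 the ATM RX/RX libraries had the lowest shares. Insertions were 5.46% and 5.59% of Sγ1 junctions for ATM RX/RX, 8.96% and 8.90% for ATM KO, and 12.6% and 7.26% for wild type. The ATM KO values fell inside the wild-type range. In Sε the shares were 8.57% and 17.8% for ATM RX/RX, 11.8% and 14.8% for ATM KO, and 6.88% and 8.11% for wild type. Every mutant Sε value lay above the wild-type values, but ATM RX/RX had only 35 and 45 Sε junctions and ATM KO replicate 1 had 17. In that library 2 insertions gave an exact interval of 1.46% to 36.4%.

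**Figure D1:**
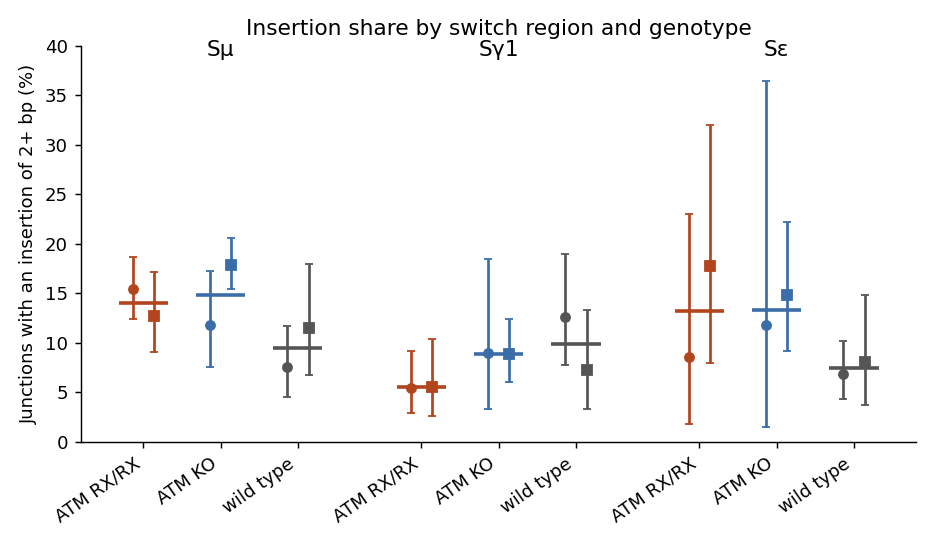
Percent of listed junctions with an insertion of 2 or more bp (y axis) in Sμ, Sγ1 and Sε for ATM RX/RX, ATM KO and wild type. Circles are replicate 1, squares replicate 2, vertical bars exact 95% binomial intervals and horizontal lines the mean of 2 libraries. Sμ values of both mutants lie above those of wild type, and Sγ1 values of ATM RX/RX (5.46% and 5.59%) lie below the rest.

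Counts of the 8 structure classes in each region (insertion of 2+, insertion of 1, blunt, and microhomology of 1, 2, 3, 4 and 5+ bases) were fitted together with edgeR, with the region's total as offset. The common dispersion over all 24 classes was only 9.77e-05, so edgeR p-values rest largely on counting error. Sμ insertions rose 1.60-fold in ATM RX/RX (log2 0.68, SE 0.28, edgeR adjusted p = 0.0436) and 1.86-fold in ATM KO (log2 0.90, SE 0.26, edgeR adjusted p = 0.0107), each against wild type. Of the 3 insertion classes, 1 passed in each of these comparisons, against 37.5% of all 24 classes for ATM RX/RX and 29.2% for ATM KO. The share of insertion classes called was thus near that of all classes. Sε insertions were 1.90-fold for ATM RX/RX (edgeR adjusted p = 0.151) and 2.00-fold for ATM KO (edgeR adjusted p = 0.0679), and neither passed. Without ATM RX/RX replicate 2 the Sε fold of ATM RX/RX was 1.19 (edgeR adjusted p = 0.829). Sγ1 insertions were 0.545-fold for ATM RX/RX (edgeR adjusted p = 0.0857) and 0.876-fold for ATM KO (edgeR adjusted p = 0.637), and neither passed. Between the mutants, ATM RX/RX against ATM KO, 0 of 3 insertion classes passed in edgeR or DESeq2, 0 had an unadjusted edgeR p under 0.05, and 4.17% of all classes were called. With all switch junctions of a library as offset, in place of those of the region, the Sμ folds were 2.76 for ATM RX/RX and 3.22 for ATM KO. Sμ held 822 of 1301 switch junctions in ATM RX/RX, 1069 of 1618 in ATM KO and 377 of 1083 in wild type. These folds therefore also take in where junctions fall, not only the insertions per Sμ junction. The Sμ calls rest on few libraries: the ATM KO call ended without ATM KO replicate 2 (log2 0.38), without wild type replicate 1 (log2 0.53) or without wild type replicate 2 (log2 1.13). The ATM RX/RX call ended without any single library other than ATM RX/RX replicate 2, both calls ended with DESeq2 (adjusted p = 0.506 for each mutant), and that of ATM RX/RX ended with a threshold of 3 bases (edgeR adjusted p = 0.0528) or with TMM factors (edgeR adjusted p = 0.0642).

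Over all 3 regions together, insertions were 11.5 ± 0.957% of junctions in ATM RX/RX, 13.2 ± 3.04% in ATM KO and 8.71 ± 0.544% in wild type (SD, n = 2 libraries each). Neither mutant overlapped wild type. Region mix enters this pooled share, since Sμ held a larger part of the junctions in the mutants than in wild type. Over all libraries, insertions were 14.7% of Sμ junctions, 7.98% of Sγ1 junctions and 9.60% of Sε junctions. The part of region mix in the pooled difference was not tested. The two-sided exact permutation test over libraries gave p = 0.3333 for each mutant against wild type, the smallest value that 2 against 2 libraries allow, so no such test can pass the threshold.

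Within Sμ, plus-orientation joins carried insertions more often than minus-orientation joins in every library. In plus orientation 20.3% and 15.9% of Sμ junctions carried an insertion for ATM RX/RX, 18.1% and 23.3% for ATM KO, and 8.47% and 14.7% for wild type. In minus orientation the shares were 11.7% and 10.8% for ATM RX/RX, 7.83% and 13.7% for ATM KO, and 7.26% and 10.5% for wild type. The wild-type plus values rest on 5 insertions per library.

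Put the other way, plus-orientation reads were 56.6% and 47.2% of Sμ insertion junctions for ATM RX/RX, 59.1% and 57.0% for ATM KO, and 27.8% and 31.3% for wild type. Among the other Sμ junctions they were 40.6% and 36.4% for ATM RX/RX, 35.8% and 41.0% for ATM KO, and 24.5% and 23.6% for wild type. The difference, insertion junctions minus others, averaged 12.8 ± 7.12 percentage points (SD, n = 6) and was above 0 in 6 of 6 libraries. The exact two-sided sign-flip test gave p = 0.03125, the smallest that 6 pairs allow, and 0.0781 after Benjamini-Hochberg adjustment over 5 such tests, so it did not pass. Among Sμ junctions more than 1000 bp from the bait the mean difference was 7.52 points (adjusted exact p = 0.234).

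**Figure D2:**
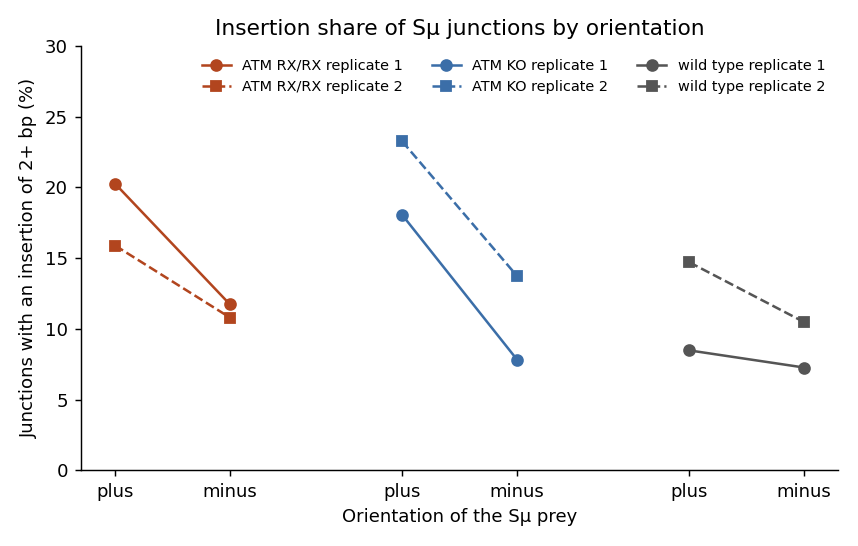
Percent of Sμ junctions with an insertion of 2 or more bp (y axis) by orientation of the prey, with 1 line per library and the genotypes side by side. All 6 lines descend towards minus orientation, most steeply in ATM KO (18.1% against 7.83%, and 23.3% against 13.7%).

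Within plus-orientation Sμ joins the genotypes also separated: both values of each mutant lay above both of wild type (exact permutation p = 0.3333, the smallest possible). Within minus-orientation joins ATM RX/RX averaged 11.3 ± 0.658%, ATM KO 10.8 ± 4.18% and wild type 8.87 ± 2.27% (SD, n = 2 each), and the ATM KO values overlapped the wild-type ones. Among plus joins the shares on both sides of the bait were alike. Pooled over libraries, 46 of 233 plus joins upstream of the bait start (19.7%) and 131 of 658 downstream (19.9%) carried insertions.

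In Sγ1 the libraries had no common direction. Plus-orientation joins made up 3 of 13 and 1 of 9 Sγ1 insertion junctions for ATM RX/RX. The numbers were 1 of 6 and 10 of 30 for ATM KO and 6 of 19 and 4 of 9 for wild type. The plus share was lower among insertion junctions than among the others in all 4 mutant libraries and higher in both wild-type ones. The mean difference was -1.99 ± 20.9 points (SD, n = 6, exact sign-flip p = 0.8125). Whether the genotypes differ in it was not tested. In Sε 5 of 63 insertion junctions (7.94%) were in plus orientation, beside 44 of 593 other Sε junctions (7.42%).

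Sμ insertion junctions tended to lie nearer to the bait. Of plus-orientation Sμ insertion junctions, 78.7% and 82.4% lay within 1000 bp of the bait start for ATM RX/RX, 76.9% and 75.6% for ATM KO, and 60% and 20% for wild type. The shares among the other plus-orientation junctions were 66.5% and 56.7% for ATM RX/RX, 52.5% and 61.6% for ATM KO, and 51.9% and 55.2% for wild type. The insertion junctions had the larger share in 5 of 6 libraries, with wild type replicate 2 the exception. In minus orientation, with every member counted, the same held in 5 of 6 libraries, again without wild type replicate 2. The margin was small in ATM RX/RX replicate 2 (36.8% of 19 insertion junctions against 33.8% of 157 others). Minus counts include the 9 same-length members beside the bait described below. In ATM RX/RX replicate 2 those at 114669190 and 114669204 lie within 1000 bp of the bait start. Without them the share of insertion junctions in that library falls below that of the others, so its direction rests on them. The shares of the other libraries were not repeated without such members. Median distances were not lower for insertion junctions in ATM KO replicate 1 minus (2070 against 1978.5 bp) or wild type replicate 2 plus (1882 against 520 bp). The median bait alignment was 57 bases in Sμ insertion reads and 59 in other Sμ reads, and the median prey alignment was 86 and 84 bases.

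Across regions the share of insertions in Sγ1 minus that in Sμ was negative in 5 of 6 libraries, with a mean of -4.69 ± 5.48 points (SD, n = 6, exact sign-flip p = 0.125). It was -9.94 and -7.13 points for ATM RX/RX, -2.81 and -9.01 for ATM KO, and 5.02 and -4.25 for wild type. For Sε minus Sμ the mean was -1.49 ± 4.01 points (SD, n = 6, exact sign-flip p = 0.4375), with no difference in ATM KO replicate 1 and a positive one in ATM RX/RX replicate 2.

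Insertions ranged from 2 to 29 bases, and long ones took a larger part in the mutants. Of the 482 insertions, 226 (46.9%) were of 2 to 5 bases and 181 (37.6%) of 10 or more, and the median was 6. The longest was 29. The authors' separate lists of longer insertions hold 4 junctions, each with 30 inserted bases, of which 3 lie on other chromosomes and 1, in ATM KO replicate 2, on chromosome 12. These 4 were not among the members.

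The mean length was 9.19 and 9.36 bases for ATM RX/RX, 11.1 and 9.73 for ATM KO, and 7.36 and 5.18 for wild type. Both mutants exceeded wild type without overlap. The means were 9.28 ± 0.118, 10.4 ± 0.966 and 6.27 ± 1.54 bases in ATM RX/RX, ATM KO and wild type (SD, n = 2 each, exact permutation p = 0.3333 for each mutant against wild type). Insertions of 10 or more bases were 39.4% and 39.6% of insertions for ATM RX/RX, 43.3% and 42.5% for ATM KO, and 27.1% and 11.8% for wild type. As a share of all switch junctions, these long insertions were 4.80% and 4.29% for ATM RX/RX, 4.80% and 6.53% for ATM KO, and 2.26% and 1.07% for wild type. Each mutant library thus had a larger share of long insertions than each wild-type library. The region mix of the libraries enters this share of all switch junctions as well.

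**Figure D3:**
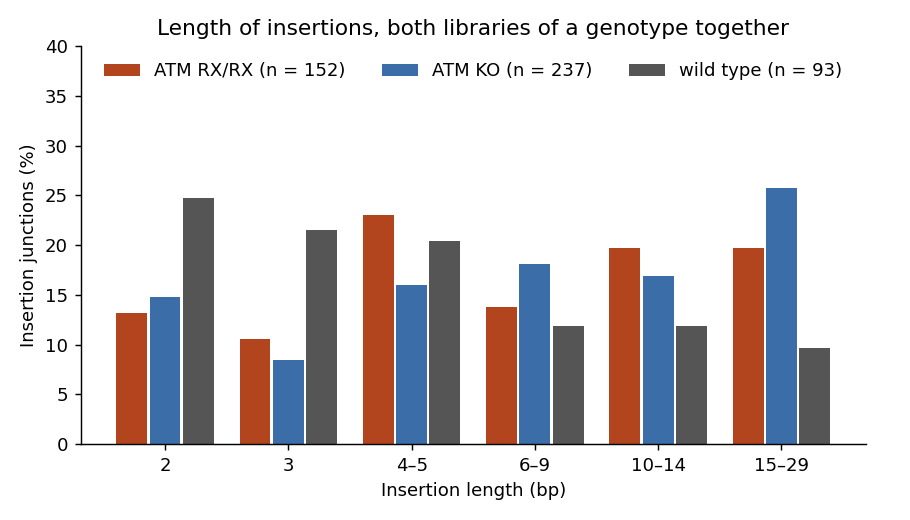
Percent of insertion junctions (y axis) in 6 length classes (x axis, bp), both libraries of a genotype pooled, for ATM RX/RX (n = 152), ATM KO (n = 237) and wild type (n = 93). Insertions of 15 to 29 bp were 19.7%, 25.7% and 9.68% in that order, and those of 2 bp were 13.2%, 14.8% and 24.7%.

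Length also varied by region and orientation. Pooled over libraries, Sμ plus insertions averaged 10.7 bases with 84 of 177 (47.5%) reaching 10, and Sμ minus insertions averaged 8.85 bases with 56 of 156 (35.9%). Sγ1 insertions averaged 7.91 bases, and Sε insertions averaged 6.43. By genotype, Sε insertions of 10 or more bases numbered 2 of 11 in ATM RX/RX, 8 of 21 in ATM KO and 3 of 31 in wild type. In Sγ1 they numbered 9 of 22, 13 of 36 and 6 of 28, in the same order. In Sμ they numbered 49 of 119 (41.2%), 80 of 180 (44.4%) and 11 of 34 (32.4%). The contrast in Sμ was smaller than that over all regions, 39.5%, 42.6% and 21.5%. Sε, with the shortest insertions, supplied 31 of the 93 wild-type insertions, and the part of region mix in the length difference was not tested. Pooled figures weight the libraries by depth, and ATM KO replicate 2 supplied 207 of the 482 insertions.

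The inserted bases were poorer in G and C than the read around them. Over 4364 inserted bases the composition was 21.4% C, 23.6% G, 28.1% T and the rest A. The 20 aligned bases on the bait side of the same junctions held 13.4% T, and the 20 on the prey side held 24.0% T. GC content of the inserted bases was 45.3% and 48.8% for ATM RX/RX, 42.9% and 42.2% for ATM KO, and 55.5% and 41.5% for wild type. The flanks on both sides together held 53.9% and 54.9% for ATM RX/RX, 53.9% and 52.2% for ATM KO, and 57.1% and 55.4% for wild type. The bait side comes from the same bait stretch in all libraries. Pooled, it held 56.8% GC and the prey side 50.8%, against 45.0% in the inserted bases. In wild type replicate 1 the inserted bases were close to the prey side (55.5% against 56.0%).

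Inserted bases were lower in GC than their flanks in 6 of 6 libraries, by a mean of -8.54 ± 4.29 points (SD, n = 6). The exact sign-flip p was 0.03125, the smallest possible, and 0.0781 after adjustment over 5 tests, so it did not pass. Wild type replicate 1 showed the smallest gap, at -1.55 points, and wild type replicate 2 the widest, at -13.96 points. The genotypes' GC values were not separated from wild type, whose 2 libraries were the highest and the lowest of all 6.

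**Figure D4:**
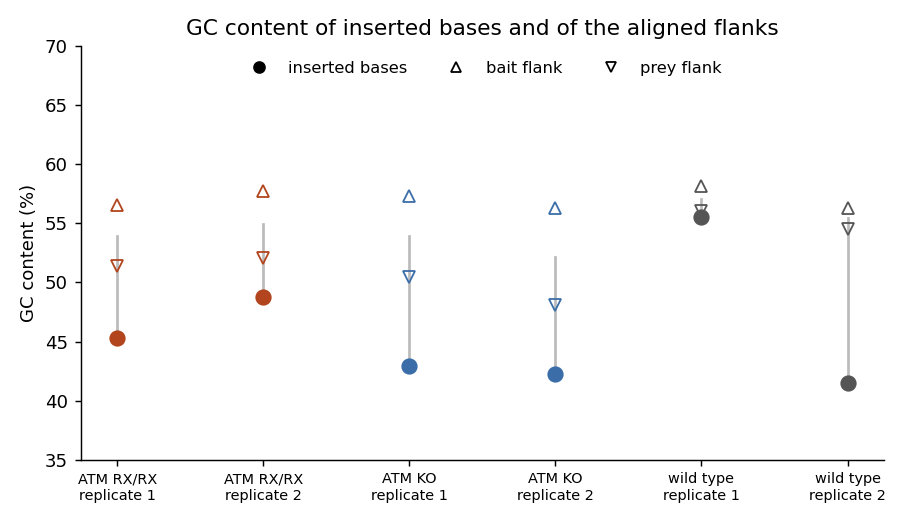
GC content (y axis, percent) per library of the inserted bases (filled circles), the 20 aligned bases on the bait side (upward triangles) and the 20 on the prey side (downward triangles). The grey line runs from the inserted bases to the mean of both flanks, and the circle lies at its lower end in all 6 libraries.

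By region, inserted bases held 43.0% GC in Sμ, 52.1% in Sγ1 and 48.6% in Sε, against 52.5%, 57.7% and 55.2% in the flanks. Sμ plus insertions were the poorest in GC, at 39.8% over 1898 bases, beside 47.5% over 1381 bases in Sμ minus. Among the 78 insertions of exactly 2 bases T made up 35.3% of bases and G 16.0%. The pair TT was the most frequent, in 13 of 78, followed by CA and TG with 9 each. Insertions of 15 to 29 bases were closer to the flanks, with 48.7% GC.

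Many long insertions could be found in the listed reads themselves. Of 181 insertions of 10 or more bases, 86 (47.5%, exact 95% interval 40.1% to 55.1%) recurred whole, on either strand, in a bait or prey part of the listed reads. Matches numbered 12 of 39 and 11 of 21 for ATM RX/RX. They numbered 5 of 13 and 45 of 88 for ATM KO, against 12 of 16 and 1 of 4 for wild type. These values overlapped between genotypes. The wild-type libraries differed, but on few insertions. Their exact 95% intervals overlapped, at 47.6% to 92.7% in replicate 1 and 0.631% to 80.6% in replicate 2. For scale, the aligned parts contain 8.52% of all possible 10-base words and 0.0117% of all possible 15-base words, counting both strands. Of the 100 insertions of 15 or more bases, 36 recurred whole, and 48 did so when 1 mismatch was allowed. In 11 of the 181 the match lay within the same read.

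Of the 86 matched insertions, 76 occurred in Sμ prey parts, 19 in the bait, 12 in Sε prey parts and 9 in Sγ1 prey parts, with some in more than 1. The direction was that of the bait in 66 and inverted in 20, and none matched both ways. Among Sγ1 minus junctions, 8 of 10 matched insertions occurred in Sμ prey parts, and 2 in Sγ1. Of the matched insertions of Sγ1 plus junctions, 4 of 6 were found in Sγ1 alone. The Sμ prey parts are the most numerous part of the search space, and the part of this in the counts was not tested.

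For 54 of the matched insertions the matching reads placed the stretch within a 10 bp window of the authors' build, in which the Sμ bait reads start at chr12:114669257. Of these, 44 belong to Sμ junctions, 27 of them from ATM KO replicate 2. Over all 44, the inserted stretch lay at a median of 324.5 bp from the prey end and 318.5 bp from the bait end. In 34 of the 44 it lay between the prey end and the bait end of its own junction. Without ATM KO replicate 2 the count was 10 of 12 in ATM RX/RX, 3 of 3 in ATM KO and 2 of 2 in wild type. In ATM KO replicate 2 it was 19 of 27.

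Among the located insertions, the direction of the matched stretch differed with the side on which the prey lay. Of 24 located insertions in plus joins downstream of the bait start, 22 read in the bait's direction and 2 were inverted. Of 6 in plus joins upstream, 5 were inverted, and the 1 that read in the bait's direction matched Sγ1. All 13 located insertions of minus joins downstream read in the bait's direction, and the 1 located in a minus join upstream was inverted. This pattern was not tested, and 27 of the 44 insertions behind it come from ATM KO replicate 2.

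**Figure D5:**
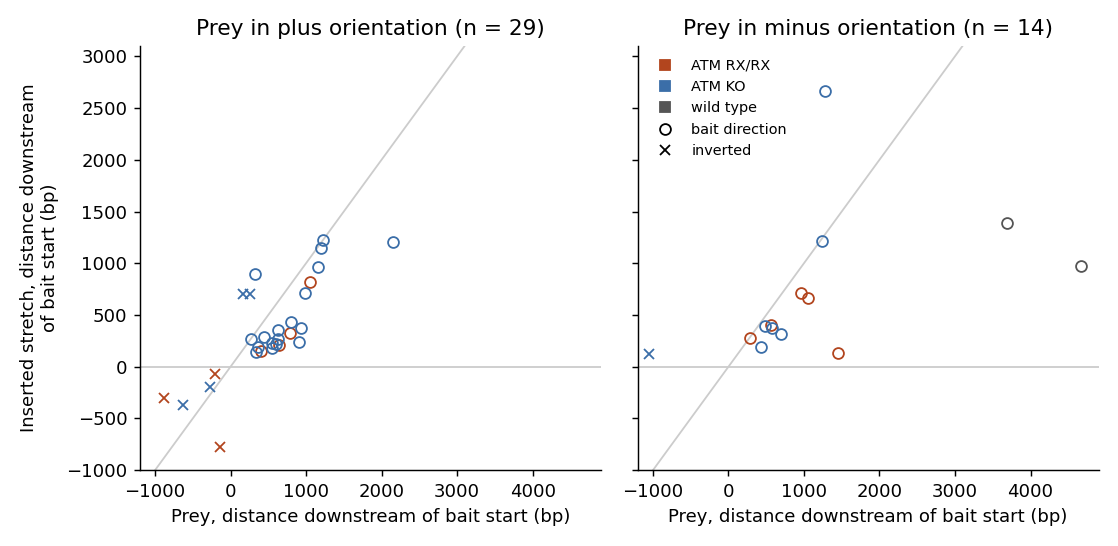
Place of the inserted stretch (y axis) against place of the prey end (x axis), both in bp downstream of the bait start, for located insertions of 10 or more bases in Sμ junctions (1 plus-orientation insertion that matched Sγ1 is left out). Left, 29 plus joins; right, 14 minus joins. Circles read in the bait's direction and crosses are inverted; colours give the genotype, and the diagonal marks stretches at the prey end itself. Most points lie between the diagonal and the horizontal line at 0, the bait start.

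The longest insertions were also searched for in mm9. Of 100 insertions of 15 or more bases, 26 had an exact place in the IgH segment and 54 had none anywhere in mm9. Another 20 matched only outside that segment, 8 of them at 1 place. How many such matches unrelated words of these lengths would give was not tested, so they do not place an origin. The locus of mm9 is that of C57BL/6, so 129-specific switch sequence cannot be found there, and 10 of the 36 insertions that recurred in the reads lacked a match in the mm9 segment. Within IgH, 11 insertions had a single mm9 place, 9 in ATM KO and 2 in wild type. In ATM RX/RX 0 of 30 insertions did.

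The single-place insertions can be traced to 1 stretch each, and the ones from ATM KO Sμ junctions are shown for that reason, chosen after their matches were known. Inserted bases are in capitals, and the mm9 place of the capitals follows in the text.
ATM KO replicate 2, Sμ plus, 22 bp: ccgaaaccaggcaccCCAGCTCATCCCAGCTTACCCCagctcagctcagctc
ATM KO replicate 2, Sμ plus, 23 bp, first: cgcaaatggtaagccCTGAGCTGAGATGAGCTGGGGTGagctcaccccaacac
ATM KO replicate 1, Sμ plus, 20 bp: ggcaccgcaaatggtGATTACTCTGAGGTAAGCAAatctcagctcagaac
ATM KO replicate 2, Sμ plus, 18 bp: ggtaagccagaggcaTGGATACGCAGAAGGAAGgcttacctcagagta
ATM KO replicate 2, Sμ plus, 23 bp, second: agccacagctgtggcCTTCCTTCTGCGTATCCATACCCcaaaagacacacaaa
ATM KO replicate 2, Sμ plus, 19 bp: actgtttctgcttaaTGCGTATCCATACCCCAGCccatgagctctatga
ATM KO replicate 2, Sμ minus, 19 bp, first: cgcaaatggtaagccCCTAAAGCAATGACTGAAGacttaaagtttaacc
ATM KO replicate 2, Sμ minus, 19 bp, second: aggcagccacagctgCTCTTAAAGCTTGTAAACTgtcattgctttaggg
ATM KO replicate 2, Sμ minus, 21 bp: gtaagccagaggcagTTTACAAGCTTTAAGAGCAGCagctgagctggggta

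The last pair match the stretch of bait printed at the start, downstream of the primer. The second 19-base insertion lies at chr12:114664814-114664832 in the bait's direction, and the 21-base one overlaps it at chr12:114664816-114664836 as an inverted copy. The first 19-base minus insertion, chr12:114664771-114664789, is also inverted and matches the bases just beyond the printed bait. In its own read the second 19-base insertion sits in genomic order between the bait end and the prey, with bases left out on both sides. Whether that read is a join was not tested. A group of 3 plus joins matched overlapping bases of Sμ. The 18-base insertion lies at chr12:114664181-114664198 in the bait's direction, and the second 23-base and the plus 19-base insertions overlap it as inverted copies at chr12:114664181-114664203 and chr12:114664189-114664207. The 20-base insertion lies at chr12:114663923-114663942 and the first 23-base one at chr12:114663741-114663763, both in the bait's direction. The 22-base insertion is an inverted copy of chr12:114663497-114663518. All 9 begin within 1391 bp downstream of the primer start. They lie between the primer and Ighm, the Cμ gene (chr12:114659078-114660941, minus strand, GENCODE annotation of mm9). Of the 11 single-place stretches, 0 overlap an annotated exon. Beside the wild-type Sε insertion shown earlier, the other single-place insertion, 19 bases in a wild-type Sγ1 plus join, lies at chr12:114571421-114571439, upstream of Ighg1 (chr12:114567187-114568734, minus strand), the Cγ1 gene.

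One kind of member stood apart from the rest. At coordinate 114669204 of the authors' build, 8 Sμ minus junctions carried insertions, with at least 1 in each of the 6 libraries, and no junction there lacked one. No other coordinate held more than 2 insertion junctions, and 442 of 459 coordinates held 1. In all 8 the insertion was exactly as long as the genome stretch left out between the end of the bait alignment and the start of the prey, 14, 16 or 21 bases. An ATM RX/RX replicate 2 junction at 114669190 had the same property with 24 bases, which gives 9 members in all. The 2 insertions that recurred whole in 3 libraries each are both at 114669204, and they are shown beside the mm9 bases at the same place.
ATM RX/RX replicate 2, ATM KO replicate 2 and wild type replicate 1: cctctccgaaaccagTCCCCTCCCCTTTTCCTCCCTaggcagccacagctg
mm9, chr12:114664842-114664892, minus strand: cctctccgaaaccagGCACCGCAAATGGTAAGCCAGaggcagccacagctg
ATM RX/RX replicate 1: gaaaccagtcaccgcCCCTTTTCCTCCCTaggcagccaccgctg
wild type replicate 2: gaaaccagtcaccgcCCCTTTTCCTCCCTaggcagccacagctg
ATM KO replicate 1: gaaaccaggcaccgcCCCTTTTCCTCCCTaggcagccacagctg
mm9, chr12:114664842-114664885, minus strand: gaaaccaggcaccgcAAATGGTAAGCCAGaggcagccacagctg

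The capitals printed here hold C and T only, in place of the reference bases, and all 8 insertions end in the 14 letters of the shorter one. The 21-base insertion differed from mm9 at 13 of 21 positions and the 14-base one at 10 of 14. The prey alignments of these 8 reads were short, from 26 to 35 bases, against a median of 86 in Sμ insertion reads. Whether these are joins or a changed stretch of unjoined bait was not tested. Without the 9 members both Sμ calls stayed past the threshold, and the plus-orientation difference in Sμ was 14.7 points in place of 12.8. The only other insertion of 6 or more bases seen in 2 libraries was CTGAGC, in both ATM KO libraries at different coordinates.

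Repeats between libraries were found among members at that coordinate alone. By coordinate, orientation, bait end and number of inserted bases, 7 of 482 insertion junctions (1.45%) matched a junction of another library, beside 176 of 3520 other junctions (5.00%). All 7 lie at 114669204, and 0 lie elsewhere. The authors' mark for duplicates was set in 0 of the listed junctions.

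Insertions were much more frequent outside the IgH locus. By the authors' counts, junctions outside IgH carried insertions of 2 or more bases in 54.8% and 40.6% of cases for ATM RX/RX, 49.1% and 31.0% for ATM KO, and 34.4% and 43.1% for wild type. Across the 3 switch regions together the shares were 12.2% and 10.8% for ATM RX/RX, 11.1% and 15.4% for ATM KO, and 8.32% and 9.09% for wild type. The switch share was the lower in 6 of 6 libraries, by a mean of -31.0 ± 9.54 points (SD, n = 6, exact sign-flip p = 0.03125, the smallest possible). This comparison was added after the data had been seen. Outside IgH the genotypes overlapped, with wild type replicate 2 above ATM KO replicate 2 and ATM RX/RX replicate 2.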

How the data were processed

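Junctions and their structure were taken from the deposited lists of 6 libraries. Per the submitters' processing notes, reads were aligned with Bowtie2 to mm9; per the series' design text, the IgH switch segment (chromosome 12, 114494415 to 114666816) was exchanged for 129 sequence, so coordinates of the files belong to that modified build and were not converted. The deposited list values (coordinates, orientation, read positions) are of other kinds, made by the authors; the authors' bin tables give a whole-number count for each region and gap size. The authors' library totals were 1233 and 701 (ATM RX/RX), 414 and 1849 (ATM KO), and 904 and 507 (wild type). Per the labels' protocols, AflII removed germ-line sequence. Some list lines are empty and were not analysed here: in Sμ 4 (ATM KO 2), 3 (ATM RX/RX 1) and 2 (ATM RX/RX 2), in Sγ1 7 (ATM KO 2) and in Sε 2 (ATM RX/RX 2). They hold 1 insertion in Sε and 1 in Sγ1 by the authors' bins.

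The gap is the prey's first read base minus the bait's last, minus 1. Class counts went through the quasi-likelihood F test of edgeR 4.0.16 under R 4.3.3 (common dispersion 9.77e-05, all 6 libraries in 1 fit, Benjamini-Hochberg over 24 classes, threshold 0.05; the SE is the log2 fold divided by the root of F). Classes of a region share its total and are not independent. DESeq2 1.42.0 was an alternative. Single values were compared by two-sided exact permutation. Sources were exact whole-length matches, on either strand, to the aligned bait and prey parts of all listed reads, and to mm9 for 15 or more bases. The class test was first tried on simulated data. Printed insertions are the 3 longest matched and the longest unmatched per genotype and those of 6 or more bases in 2 or more libraries; the 9 ATM KO insertions with a single mm9 place were added after their matches were seen. Alternatives were TMM factors, all switch junctions as offset, DESeq2, a replicate block, a class minimum, a threshold of 3 bases, repeated junctions removed, flanks of 10 bases, GC averaged per insertion, median length, no length limit, matches from 8 or 15 bases, with 1 mismatch or in the same read, and each library left out; those without same-length insertions, far from the bait, with mm9 added, and outside IgH were chosen after seeing the data, as was leaving out each library for the share found in the reads. Members and lists were chosen with earlier results of these data known.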

Additional observations from a re-analysis of the deposited data

Results flagged for a closer look

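Relative to the wild-type mean, every ATM RX/RX library had a higher insertion share in Sμ and a lower one in Sγ1. The mean changes were 4.52 and -4.39 points, a gap of 8.92 points between the regions (exact permutation p = 0.3333, the smallest possible). The same held for Sγ1 set against Sε in ATM RX/RX, where the Sε change was 5.68 points and the gap -10.1 points (exact p = 0.3333). In ATM KO every library was likewise higher in Sμ, by a mean of 5.30 points, and lower in Sγ1, by -0.992 points. The gaps were 6.29 points for Sμ against Sγ1 (exact p = 0.6667) and -6.80 points for Sγ1 against Sε (exact p = 0.3333). In Sγ1 both ATM KO libraries lay within the range of the wild-type ones, 7.26% to 12.6%. These gaps were picked out because the libraries moved in opposite directions in the 2 regions, and with 2 libraries per genotype no test of them can pass the threshold.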

How the results depend on the processing

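With 1 insertion class called in each mutant against wild type, DESeq2 and the replicate block each left 0 in both comparisons. DESeq2 called 0 of 24 classes anywhere, with 6 (ATM RX/RX against wild type), 1 (ATM KO against wild type) and 1 (between the mutants) at an unadjusted p under 0.05. TMM factors left 0 for ATM RX/RX, and a threshold of 3 bases left 0 for ATM RX/RX and gave 2 for ATM KO, where Sε insertions then passed (log2 1.26, edgeR adjusted p = 0.0345). Leaving out 1 library gave 0 to 1 called classes in each of these comparisons and 0 to 0 between the mutants. Without wild type replicate 2 the class called in ATM RX/RX was Sγ1, at log2 -1.18 (edgeR adjusted p = 0.0477). With all switch junctions as offset, the Sμ calls held at log2 1.46 (ATM RX/RX) and 1.69 (ATM KO). Sμ takes a larger part of all junctions in the mutants, so these folds are not per Sμ junction. Sε insertions turned to log2 -1.69 (ATM RX/RX) and -1.15 (ATM KO), since Sε takes a smaller part of all junctions there. Uncalled folds also turned in Sγ1 of ATM KO with a threshold of 3 bases (log2 0.0045) and over single libraries left out (-0.49 to 0.29), and between the mutants in Sε with the replicate block (0.051) and over libraries left out (-0.75 to 0.29), and in Sμ (-0.40 to 0.30). The Sγ1 plus-orientation difference ranged from -9.20 to 3.15 points with 1 library left out, and the insertion share of ATM RX/RX minus ATM KO from -3.85 to 0.45 points. The switch share minus that outside IgH ranged from -34.1 to -28.7, where 5 pairs cannot give p under 0.0625. The share of insertions found in the reads was 36.0% at 15 or more bases, with or without the mm9 IgH segment, 6.08% within the same read, and 44.1% to 52.1% with 1 library left out, a range added after seeing the data. Without ATM RX/RX replicate 2, Sε between the mutants was 0.595-fold (edgeR adjusted p = 0.547), against 0.95-fold with it. The replicate block gave Sμ insertions a log2 fold of 0.66 for ATM RX/RX and 0.75 for ATM KO, with edgeR adjusted p = 0.118 and 0.121; same-numbered libraries did not deviate together (correlations over classes of -0.32, 0.03 and -0.003), so the numbers were not taken to pair them. Depth limits Sε of ATM RX/RX (35 and 45 junctions) and of ATM KO replicate 1 (17 junctions).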
